A study of Mus musculus with 8 samples.

Results

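The late cornified envelope 1 (Lce1) genes were examined in isolated mouse hepatocytes, as the 10 genes Lce1a1, Lce1a2, Lce1b, Lce1c, Lce1d, Lce1e, Lce1f, Lce1g, Lce1h and Lce1i. They were found on the arrays as every non-control probe whose accession belongs to one of these genes. This gave 13 probes for 10 of the 21364 genes named on the arrays. The family was chosen by a measured value of this same comparison, the fall of Lce1d in the knockout, so the Lce1 values between genotypes are a description, with no test. RNA was profiled with 1-colour Agilent arrays in 4 hCNR1+/+ mice (label hCNR1_WT, strain label CNRO) and 4 hCNR1-/- mice (label hCNR1_cKO, strain label CNRO Alb-Cre). The hCNR1-/- mice lack the cannabinoid 1 receptor gene Cnr1 in hepatocytes. They were bred from mice with floxed CNR1 alleles and mice with a Cre recombinase driven by the albumin promoter, which is active in hepatocytes, and the controls were littermates. All mice were males of 12 to 14 weeks on a standard diet, and no other treatment is named in their labels.

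Late cornified envelope proteins are small precursor proteins rich in cysteine and glycine. In the uppermost living layers of the epidermis they are crosslinked by transglutaminases under the plasma membrane, together with loricrin, involucrin and the small proline-rich proteins. The product is the cornified envelope, the tough shell of a dead surface keratinocyte. Their genes lie side by side in the epidermal differentiation complex on mouse chromosome 3, between other cornified envelope precursors and genes of the S100 family of calcium-binding proteins. They are known as skin genes and not as genes of the hepatocyte.

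The Lce1 genes are a family of related genes, and the DNA just before their starts was compared. RefSeq (assembly GRCm38.p6) held this sequence for 9 of the 10 genes, all but Lce1f. The last 100 bases before the start are shown for the 3 genes that were measured in these hepatocytes. They are written 5′ to 3′ on the strand of the gene, and the capitals mark the AT-rich hexamer that begins 30 bases before the start.
Lce1d, chr3:92687211-92687310, minus strand: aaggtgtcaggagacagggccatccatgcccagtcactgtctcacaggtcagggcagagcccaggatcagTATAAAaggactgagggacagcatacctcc
Lce1c, chr3:92679147-92679246, plus strand: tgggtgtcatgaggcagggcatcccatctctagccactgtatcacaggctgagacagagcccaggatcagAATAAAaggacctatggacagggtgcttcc
Lce1a2, chr3:92670316-92670415, minus strand: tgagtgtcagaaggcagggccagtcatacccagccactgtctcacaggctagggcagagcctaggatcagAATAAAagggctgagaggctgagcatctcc

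Over the 250 bases before the start, the Lce1a2 sequence was 74.9% identical to that of Lce1d, and the Lce1c sequence was 62.9% identical. Of the 9 promoters, only that of Lce1d held TATAAA, the core of a TATA box, on either strand of these 250 bases. TATAAA was found in 12.4% of 32851 RefSeq promoters of the same length. AATAAA was found in 7 of the 9, those of Lce1a2, Lce1b, Lce1c, Lce1e, Lce1g, Lce1h and Lce1i, and in 18.1% of all promoters. The promoter of Lce1a1 held TTTAAA 29 bases before its start. TGACTCA, a sequence bound by AP-1 factors, was in none of the 9 and in 4.46% of all promoters. The matches describe the letters only.

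Most Lce1 genes were not measurable in hepatocytes. The scanner software flags each spot that stands well above background, and a probe was taken as such where 50% or more of its spots had the flag. By this rule 3 of the 10 genes, Lce1d, Lce1c and Lce1a2, stood above background on 4 arrays or more. Lce1d and Lce1a2 were so on all 8 arrays. Lce1a1, Lce1b, Lce1e, Lce1f, Lce1h and Lce1i were so on none. Lce1g was well above background on 1 array, that of hCNR1+/+ replicate 4, with an intensity of 29.5 against at most 9.57 on the other 7 arrays. No fold is given for Lce1g, because its hCNR1+/+ mean was lower than the dimmest signal that could be told from background on the hCNR1-/- arrays.

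The 8 probes that were never well above background had intensities from 2.86 to 12.0, for probes on several spots as a mean over spots. Their order between genes or genotypes therefore has no meaning. Lce1b was represented by 10 spots, and none of them was flagged as above background on any array. Lce1c and Lce1i each have another probe, and these did not behave alike. Neither probe of Lce1i was well above background on any array. One Lce1c probe, A_55_P2135095, was well above background on 5 arrays, and the other, A_51_P414208, on none. Which transcripts each probe can bind was not tested, since the deposited files give no probe sequences, and in a family of related genes the assignment of a probe to 1 member is uncertain.

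**Figure D1:**
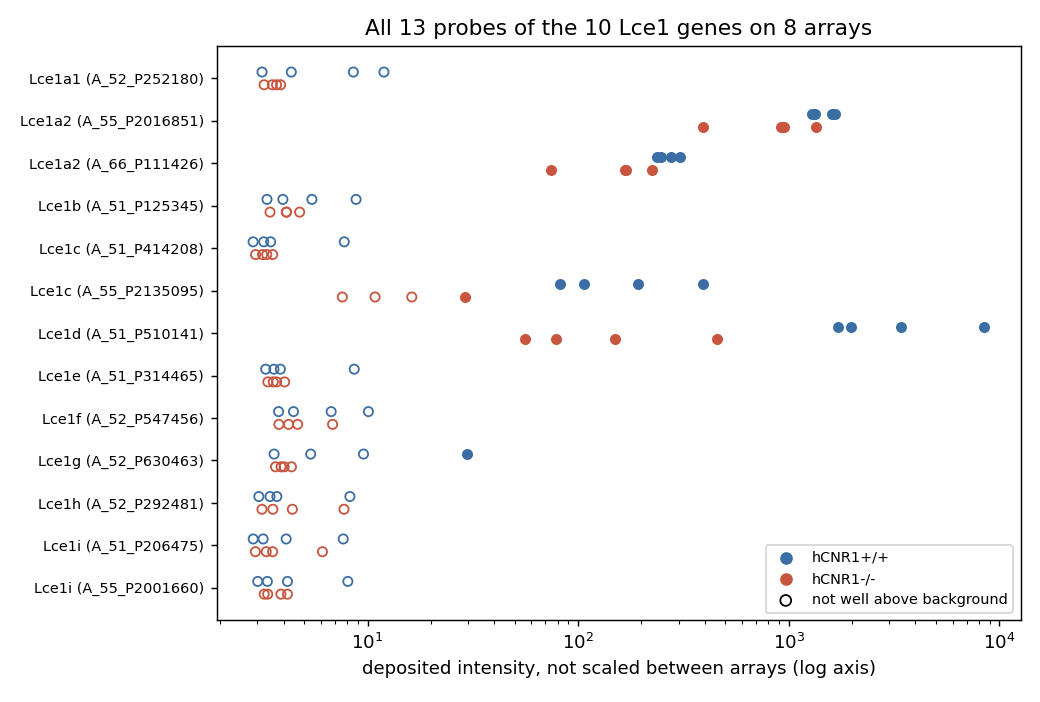
Intensity of each of the 13 Lce1 probes on each of the 8 arrays, on a log axis and not scaled between arrays (blue, hCNR1+/+; red, hCNR1-/-). Filled points are well above background, and open points are not. Lce1d, both Lce1a2 probes and 1 of the Lce1c probes stand out from the other probes, which are not well above background except for Lce1g on 1 array.

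Lce1d had the largest fall of the family. All further levels are log2 intensities relative to the 75th percentile of their own array, taken over non-control spots, so that a level of 0 is as bright as that percentile. In hCNR1+/+ hepatocytes the level of the Lce1d probe was 3.90, 4.61, 3.96 and 7.09 in replicates 1 to 4. In hCNR1-/- hepatocytes it was 0.27, 2.53, -0.26 and 0.94. Every hCNR1-/- value was below every hCNR1+/+ value, and replicate 4 of hCNR1+/+ stood highest. The means were 4.89 ± 1.50 (SD, n = 4) and 0.87 ± 1.21 (SD, n = 4), a log2 difference of -4.02, or 16.2-fold. The lowest hCNR1+/+ value exceeded the highest hCNR1-/- value by 1.38. Before any scaling the intensities were 1984, 3402, 1711 and 8461 in hCNR1+/+ and 149, 457, 78.6 and 56.1 in hCNR1-/-. Lce1d had 1 probe with 1 spot per array, so no other probe or spot stands beside these values. The spot was well above background on every array. The background around the spot was alike in both genotypes, with 35 to 49 units in hCNR1+/+ and 36 to 48 in hCNR1-/-.

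Lce1c lies next to Lce1d in the complex. Its brighter probe had levels of -0.32, 0.46, -0.42 and 2.65 in hCNR1+/+ hepatocytes, and was well above background on all 4 arrays. In hCNR1-/- hepatocytes the levels were -2.93, -1.46, -3.12 and -1.95, and only replicate 2 was well above background. The genotypes did not overlap, and as for Lce1d the highest values were those of replicate 4 in hCNR1+/+ and replicate 2 in hCNR1-/-. The means were 0.59 ± 1.43 (SD, n = 4) and -2.36 ± 0.79 (SD, n = 4), a log2 difference of -2.95, which was -1.34 with the normexp background correction. The hCNR1-/- mean contains 3 values that were not well above background, so no fold is given, and the other Lce1c probe gave no level in either genotype.

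Lce1a2 was clearly measured but did not separate the genotypes. Its brighter probe had levels of 3.32, 3.57, 3.55 and 4.70 in hCNR1+/+ and 3.44, 3.53, 3.34 and 3.75 in hCNR1-/- hepatocytes. The ranges overlapped, and the log2 difference of -0.27 was smaller than the SD of 0.62 in hCNR1+/+. Its other probe had levels of 1.05, 1.13, 1.17 and 1.93 in hCNR1+/+ and 0.86, 1.09, 0.83 and 1.34 in hCNR1-/-, again overlapping, with a log2 difference of -0.29. Both probes of the gene thus gave a similar difference. Without hCNR1+/+ replicate 4 the difference of the brighter probe was 0.04. Before scaling, hCNR1+/+ replicate 4 was not the highest array for either probe. Its intensity was 1609 for the brighter probe, against 1653 in hCNR1+/+ replicate 2, and 236 against 305 for the other.

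The means of all 3 measured genes were lower in hCNR1-/- hepatocytes, and 43.4% of the 11069 tested genes had a lower mean there. The genotypes did not overlap for 2 of the 3, Lce1d and Lce1c, and 5.04% of the tested genes had all hCNR1-/- arrays below all hCNR1+/+ arrays. Since the rule used this contrast, nothing is read from these counts.

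**Figure D2:**
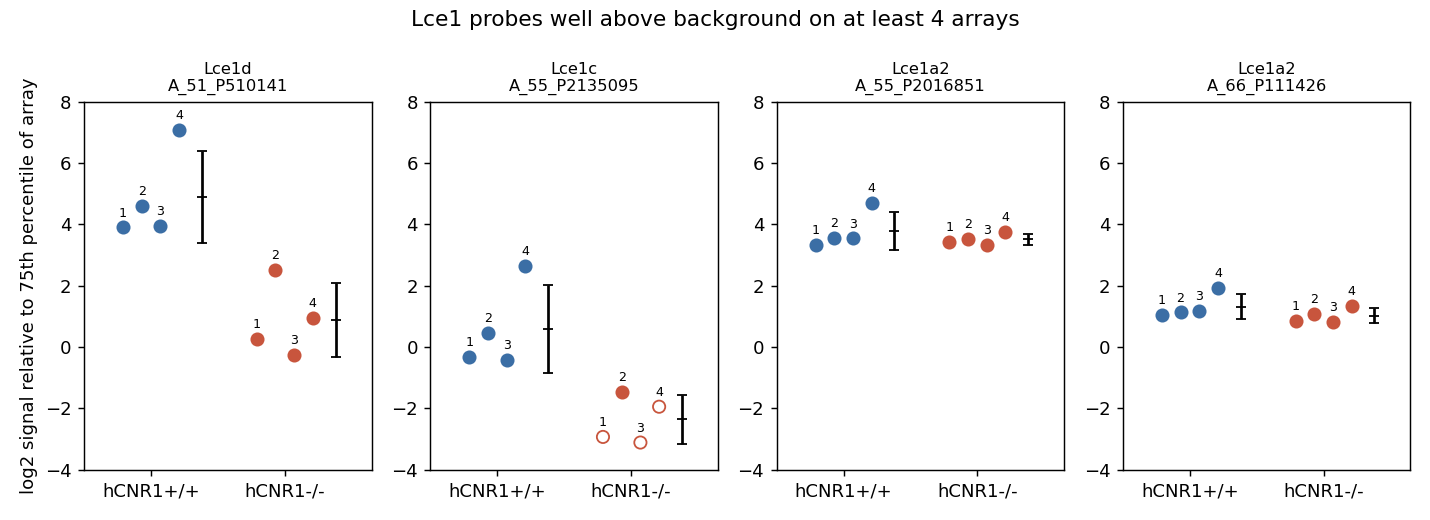
Level of the 4 Lce1 probes that stood above background on 4 arrays or more, as log2 intensity relative to the 75th percentile of the array, with the mean and SD of each genotype in black (n = 4) and the replicate number beside each point. Open points are not well above background. The genotypes are apart for Lce1d and Lce1c and overlap for both Lce1a2 probes. On this scale hCNR1+/+ replicate 4 is the highest of the 8 arrays in every panel, but before scaling it was not so for either Lce1a2 probe.

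By size, the fall of Lce1d ranked 5th among the 11069 genes. The 4 larger log2 differences were those of Smtnl2 (-4.37), Gdap10 (-4.32), Syt10 (-4.26) and Rbmxl2 (-4.17), and none of these genes was well above background on all 8 arrays. The fall ranking after Lce1d, that of 4931428F04Rik (-3.74), was well above background on 4 arrays and on none of hCNR1-/-. Among genes that stood above background on every array Lce1d had the largest fall, and the next was that of Lncpint, a long noncoding RNA, with a mean level that went from 3.14 ± 0.26 (SD, n = 4) in the controls to -0.57 ± 1.16 (SD, n = 4) in the knockout. The SD of Lce1d in hCNR1+/+ was thus much larger than that of Lncpint.

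The size of the Lce1d fall moved with single arrays, but its direction did not. It ran from -4.57 without hCNR1-/- replicate 2 to -3.29 without hCNR1+/+ replicate 4. Over the other scalings, the deposited z-scores and a different background correction, it ran from -4.58 to -3.41. Its rank ran from 1st, with the different background correction, to 9th, without hCNR1+/+ replicate 4.

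**Figure D3:**
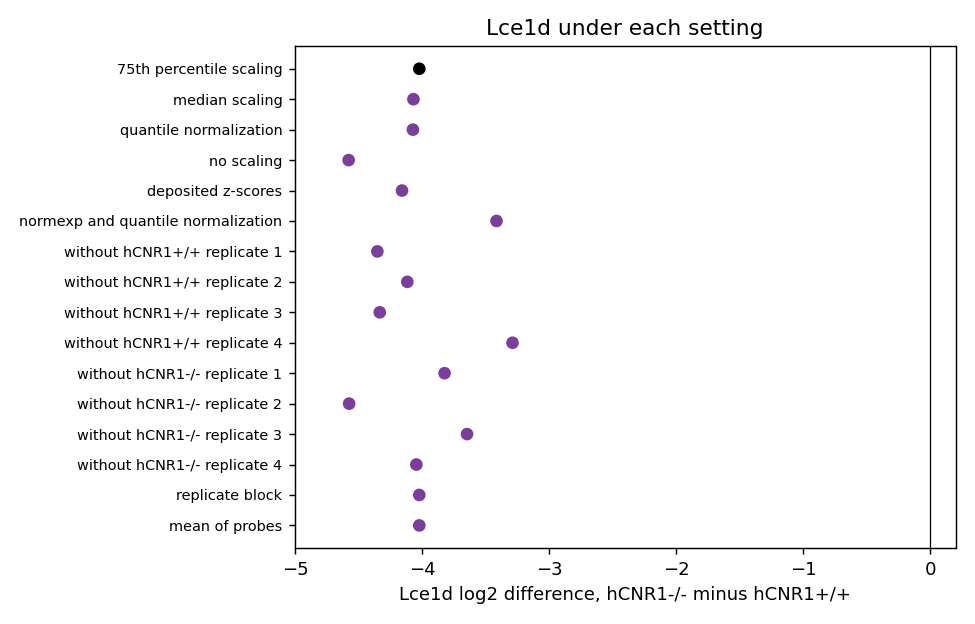
Log2 difference of Lce1d (hCNR1-/- minus hCNR1+/+) with the scaling used throughout (black) and under each alternative or with 1 array left out (purple). Every value lies between -4.58 and -3.29.

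The likeness of other genes to Lce1d was read from the deviations of the 8 arrays from their genotype means. Pearson's r between Lce1d and Lce1c was 0.967, the 5th highest of 11068 tested genes against Lce1d. Without hCNR1+/+ replicate 4 it was 0.931, in place 19. On 3 of the 4 hCNR1-/- arrays the Lce1c value in this r was not well above background. The genes with a higher r were Agxt (0.987), which encodes a peroxisomal aminotransferase of hepatocytes, Bhlhe41 (0.971), a transcriptional repressor of the circadian clock, Dnmbp (0.970), a scaffold protein, and Ptgds (0.968), a prostaglandin D synthase. None of these 4 passed the test between genotypes, with log2 differences from -0.06 to 0.56 (adjusted p from 0.210 to 0.957 in limma). Bhlhe41 and Dnmbp were dim, with mean levels of -1.58 and -1.90 in hCNR1+/+ and -1.64 and -1.34 in hCNR1-/-. On hCNR1-/- replicate 4 the dimmest signal well above background was -0.85. Lce1a2 had an r of 0.816, which was 0.455 without hCNR1+/+ replicate 4. An r of 0.9 or more was found for 63 genes, or 0.569% of those tested. The 8 points share the scaling of their arrays and the high values of hCNR1+/+ replicate 4, and they are a description.

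**Figure D4:**
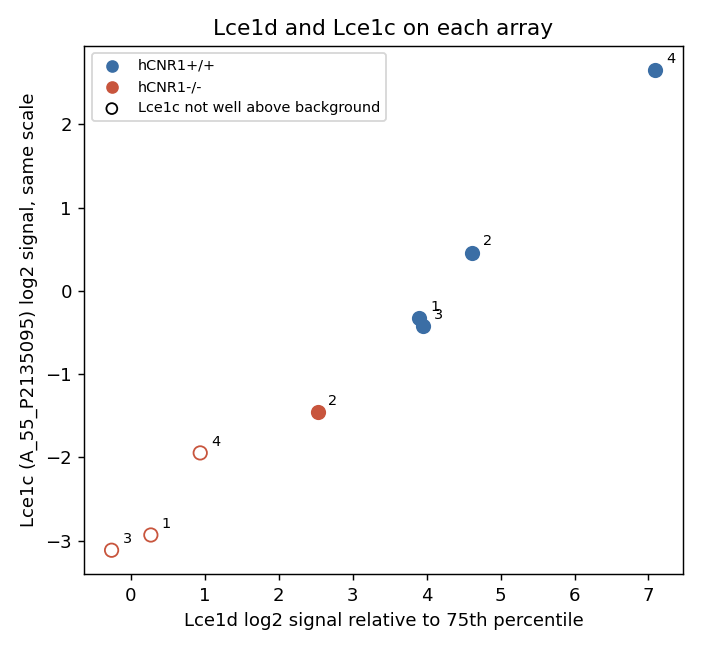
Level of Lce1c (probe A_55_P2135095) against level of Lce1d on each of the 8 arrays, both as log2 intensity relative to the 75th percentile of the array (blue, hCNR1+/+; red, hCNR1-/-; numbers are replicates). Open points are arrays on which Lce1c was not well above background. Replicate 4 of hCNR1+/+ is highest on both axes, and hCNR1-/- replicate 2 is nearest to the hCNR1+/+ arrays.

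The other genes of the epidermal differentiation complex were tested with limma on all 8 arrays. Of 55 listed genes, 52 have a probe and 18 stood above background on 4 arrays or more. None of the 18 passed an adjusted p of 0.05. An unadjusted p below 0.05 was found for 3, with Sprr2g and Lor lower and S100a16 higher in hCNR1-/-, and nothing is read from this count. Over all tested genes, 4.24% passed the adjusted threshold in either direction. The log2 differences were below 0 for 5 of the 18 and above 0 for 13, with a median of 0.29 against 0.08 over all tested genes.

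Among the 42 other precursors of the cornified envelope, 9 were tested. Sprr2g, a small proline-rich protein gene, came closest to the threshold. Its levels were -1.43, 0.66, -0.30 and 2.75 in hCNR1+/+ hepatocytes, and -4.16, -1.59, -3.16 and -2.98 in hCNR1-/- hepatocytes, where only replicate 2 was well above background. The genotypes did not overlap, and the highest replicate of each genotype was the same as for Lce1d and Lce1c. The log2 difference was -3.39 (SE 0.84, adjusted p = 0.0529 in limma). Over 17 alternatives it ran from -4.01 to -1.38, with an adjusted p from 0.0361 to 0.178. Sprr2g was tested only because of its hCNR1+/+ arrays, and 3 of its 4 hCNR1-/- values were not well above background. It fell below 0.05 without scaling between arrays and without hCNR1+/+ replicate 1.

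The precursors nearest in kind to the Lce1 genes did not pass the test. Lce1j, the next Lce1 gene along the chromosome that is not among the 10, had a log2 difference of -0.70 (adjusted p = 0.242 in limma), and Lor, the gene of loricrin, had -0.73 (adjusted p = 0.218 in limma). Both were well above background on all 8 arrays. For Lce1j the highest replicate of each genotype was the same as for Lce1d, with levels of 1.81 in hCNR1+/+ and 0.63 in hCNR1-/-. Lce3d (-0.14), Lce6a (0.33), Sprr1a (0.50), Sprr2a2 (-0.02), Crct1 (0.37) and Lelp1 (0.09) did not pass the test either. Sprr1a and Sprr2a2 were bright in both genotypes, with mean levels of 7.45 and 7.34 in hCNR1+/+ and 7.95 and 7.32 in hCNR1-/- hepatocytes. Involucrin (Ivl) and 23 other precursors stayed at background throughout, and Sprr2a1, Sprr2a3 and Flg had no named probe.

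All 9 tested S100 genes of the complex had a higher mean in hCNR1-/- hepatocytes, with a median log2 difference of 0.39, and none passed the test. The largest difference relative to its error was that of S100a16, 0.85 (SE 0.27, adjusted p = 0.108 in limma). Without scaling between arrays 7 of the 9 were lower, where the median of all tested genes was -0.47. Quantile normalization left 8 of 9 higher.

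**Figure D5:**
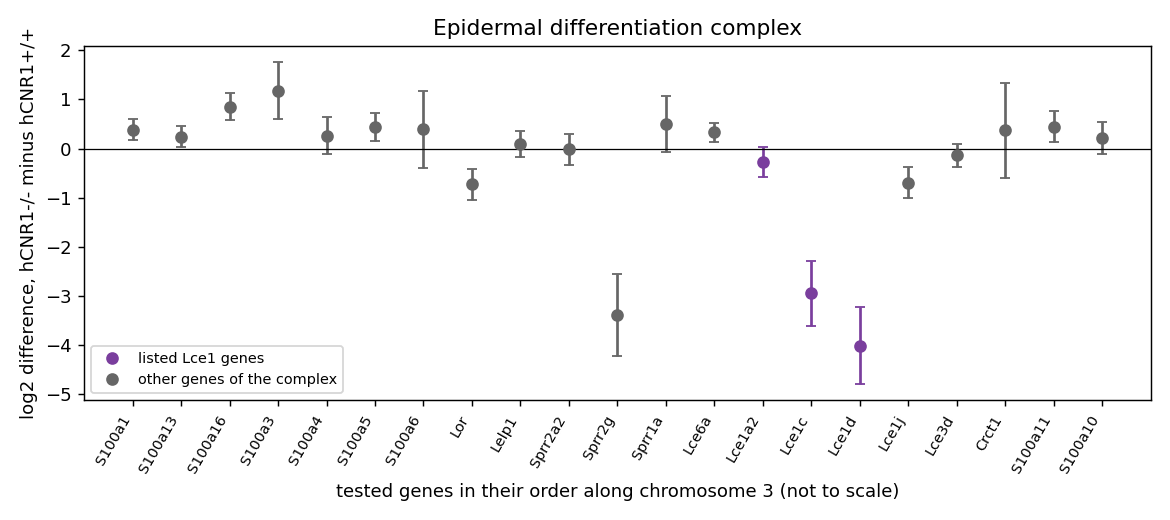
Log2 difference (hCNR1-/- minus hCNR1+/+) of each tested gene of the epidermal differentiation complex, with the SE from limma as bars, in gene order along chromosome 3. The listed Lce1 genes are purple. Lce1d, Lce1c and Sprr2g lie below -2.9, and the other genes, Lce1a2 and Lce1j among them, lie between -0.73 and 1.18.

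Of 27 genes that act in cornification but lie elsewhere in the genome, 9 were tested and 15 were not well above background on any array. Alox12b, a lipoxygenase needed for the lipid envelope of the skin barrier, was the only one to pass the test, and it rose by 1.46 (SE 0.31, adjusted p = 0.0377 in limma), where 2.94% of all tested genes passed as higher. Its levels were -1.53, -1.85, -1.01 and -2.17 in hCNR1+/+ and 0.17, -0.03, -0.03 and -0.83 in hCNR1-/- hepatocytes, with 2 and 3 arrays well above background. The groups did not overlap, but the call was kept in 3 of 17 alternatives, with an adjusted p from 0.0135 to 0.817. The transglutaminases Tgm1 (-0.08) and Tgm3 (-0.39), which crosslink envelope precursors, did not pass. Nor did the envelope scaffold genes Evpl (-0.60) and Ppl (-0.22), the desmosomal Dsp (0.36), or Aloxe3 (0.70), Sbsn (0.45) and Krt2 (0.49).

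Among the 16 transcriptional regulators of epidermal differentiation reported here, 9 were tested and 7 of them had a lower mean in hCNR1-/- hepatocytes. Without hCNR1-/- replicate 4, 5 of the 9 were lower and 4 were higher. None passed an adjusted p of 0.05 in limma, and 0 had an unadjusted p below 0.05. The log2 difference of Trp63, the master regulator of stratified epithelia, was -0.25. It was -0.65 for Klf4, -0.56 for Grhl1, -0.40 for Zfp750 and -0.41 for Nfe2l2. Cebpa (-0.30) and Cebpb (-0.24), which also act in hepatocytes, gave small differences, as did Smarca4 (0.14) and Trp53 (0.39).

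Markers of the cells that a hepatocyte preparation could hold were read beside these results. All 18 hepatocyte markers stood above background on each of the 8 arrays. Between genotypes 9 had a lower and 9 a higher mean in hCNR1-/- hepatocytes, and none passed the test. An unadjusted p below 0.05 in limma was found for 3, all lower, Pck1 (-1.81), Ass1 (-1.14) and Tdo2 (-1.03). Of 15 keratinocyte markers, 6 were tested and none passed, and 8 were not well above background on any array, among them Krt14, Krt15, Krt1, Dsg3, Col17a1 and Krtdap. Of the 6, 3 had a higher mean in hCNR1-/- hepatocytes, Krt5 (0.84), Ly6d (0.71) and Sfn (0.62). The other 3 had a lower one, Krt10 (-0.71), Perp (-0.44) and Trp63 (-0.25). Without hCNR1-/- replicate 4, 5 of the 6 were higher and 1 was lower. The level summed over the 6 tested markers, in multiples of each array's 75th percentile, was 56.3 to 88.3 in hCNR1+/+ and 54.8 to 101 in hCNR1-/-. The genotypes overlapped. The brightest of the 6 were Ly6d and Perp, with mean levels of 4.92 and 4.73 in hCNR1+/+. After the genotype means were subtracted, the 6 tested markers differed in their r with Lce1d over the 8 arrays. It was 0.947 for Trp63 (place 13 of 11068, and 0.874 without hCNR1+/+ replicate 4) and 0.333 for Sfn. It was below 0 for Krt10 (-0.05), Ly6d (-0.14), Perp (-0.20) and Krt5 (-0.68). Several of these signs rested on hCNR1+/+ replicate 4. Without that array r was 0.09 for Krt5, 0.23 for Ly6d, -0.14 for Sfn, -0.04 for Krt10 and -0.02 for Perp. The part of keratinocyte RNA in the Lce1d result was not tested.

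Markers of Kupffer cells, the resident macrophages of the liver, were lower in the same genotype as Lce1d. Of 11, 9 were tested and all 9 had a lower mean in hCNR1-/- hepatocytes, with a median log2 difference of -0.83, and 1 passed the test (Marco, a scavenger receptor, -2.41, adjusted p = 0.0336 in limma). Over all tested genes, 43.4% had a lower mean and 1.30% passed as lower. Without hCNR1+/+ replicate 4, 8 of the 9 markers were lower and 1 was higher, with a median of -0.65. The call of Marco was kept in 8 of 18 alternatives, with an adjusted p from 0.0284 to 0.134 in limma. Timd4 stayed at background on every array, and Adgre1 stood above it on 3. The level summed over the 9 tested markers was 84.6 to 168 in hCNR1+/+, highest in replicate 4, and 51.3 to 70.2 in hCNR1-/-. With the genotype means subtracted, the r of the 9 genes with Lce1d ran from -0.52 (Vsig4) to 0.623 (Cd68), and was 0.556 for Marco. Without hCNR1+/+ replicate 4 it ran from -0.85 (Vsig4) to 0.284 (Csf1r), and Csf1r was the only one above 0. The part of these cells in the Lce1d result was not tested. In such bulk samples fewer cells of a type and less RNA per cell cannot be told apart. No tested marker of cholangiocytes, sinusoidal endothelial cells, stellate cells or lymphocytes passed the test. Lower means in hCNR1-/- were found for 1 of 2 cholangiocyte, 5 of 7 endothelial, 1 of 1 stellate and 0 of 2 lymphocyte markers.

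The arrays differed in brightness, with 75th percentiles from 29.3 (hCNR1-/- replicate 4) to 139 intensity units, and with 28.6% to 42.3% of spots well above background. The percentile was 62.0 in hCNR1+/+ replicate 4, against 110 to 139 in the other hCNR1+/+ replicates. A low percentile raises every scaled level of its array. All 8 arrays were on 1 slide, with hCNR1+/+ in its first row and hCNR1-/- in its second row, so the row on the slide and the genotype cannot be told apart. The column on the slide was the same as the replicate number in both genotypes.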

How the data were processed

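RNA of hepatocytes from 8 mice was hybridised to 1-colour arrays, and samples were grouped by the genotype label. The authors deposited, per spot, the intensity from Feature Extraction 12.0.3.1, with the background corrected within the array and no scaling between arrays, and a score per spot, which differed by at most 0.005 from a z-score of log intensities made array by array. The scaling is otherwise not given in the sources used here. For this report log2 intensities were taken relative to the 75th percentile of 59305 non-control spots. Spots flagged as outliers were left out, and spots of a probe were averaged. Accessions were matched without versions to RefSeq GRCm38.p6, which named 28325 of 55681 probes. Genes with a probe above background on 4 or more of the 8 arrays were tested, each by its brightest probe, by lmFit and eBayes of limma 3.58.1 in R 4.3.3, with Benjamini-Hochberg adjustment over 11069 genes. The fit was tested on simulated data. 1 gene of the regulator list is not reported here. The members and gene lists were chosen with earlier results of these data known. Named were all Lce1 genes, the tested genes of 4 lists of the epidermal programme (called genes and the largest differences for longer lists), the falls next to Lce1d in size and the 5 genes most like it. Alternatives were other scalings, the deposited scores, normexp correction (on median spot signals), other filters and probe choices, a replicate block, and each array left out in turn. Precision is limited by 4 arrays per genotype.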

Additional observations from a re-analysis of the deposited data

Results flagged for a closer look

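In 9 of 94 groups of 4 arrays (a gene or marker list in 1 genotype), 1 array lay far from the other 3, by the ratio of its gap to the range of the group (Dixon's test). Chance gives about 1 in 20. The array apart was hCNR1+/+ replicate 4 in 4 of them and hCNR1-/- replicate 4 in 3. Among the Lce1 probes, the dimmer Lce1a2 probe was apart in hCNR1+/+, with 1.93 in replicate 4 against 1.05 to 1.17 (ratio 0.863). Before scaling, its intensity in hCNR1+/+ replicate 4 was 236, below the 248 to 305 of the other hCNR1+/+ replicates. Lce3d was apart on the same array, with -1.43 against -1.94 to -1.86 (ratio 0.834). Tgm1 was low in hCNR1-/- replicate 1, with 1.60 against 2.15 to 2.22 (ratio 0.883). Cebpa was high in hCNR1-/- replicate 3, with 5.04 against 4.73 to 4.74 (ratio 0.957). Nfe2l2 was low in hCNR1-/- replicate 4, with 2.47 against 4.25 to 4.57 (ratio 0.849).

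Levels summed over the tested markers of a cell type, in multiples of the 75th percentile, were apart in replicate 4 of both genotypes. In hCNR1+/+ replicate 4 the Kupffer cell sum was 168 against 84.6 to 91.2 (ratio 0.921), and the lymphocyte sum 14.4 against 9.84 to 10.6 (ratio 0.838). In hCNR1-/- replicate 4 the sinusoidal endothelial cell sum was 299 against 56.7 to 72.6 (ratio 0.935), and the lymphocyte sum 33.3 against 13.1 to 14.9 (ratio 0.911). The endothelial sum mainly follows 1 gene, Kdr, and does not show the markers apart as a set. The highest hCNR1-/- level was 8.18 for Kdr, and at most 1.85 (Stab2) for the other endothelial markers. Replicate 4 had the lowest 75th percentile of each genotype, 62.0 intensity units in hCNR1+/+ and 29.3 in hCNR1-/-. A low percentile raises every level expressed in its multiples, so these sums do not by themselves show more RNA of a cell type. The part of these sums in the Lce1 values was not tested.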

How the results depend on the processing

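The log2 difference of Lce1d kept its direction under all alternatives, from -4.58 without scaling to -3.41 with normexp correction, and from -4.57 to -3.29 with 1 array left out. The difference of Lce1c ran from -3.51 to -1.34, the last with normexp correction, and from -3.29 to -2.27 with 1 array left out. That of Lce1a2 was -0.82 without scaling, where the median of all tested genes moved from 0.08 to -0.47, and ran from -0.42 to 0.04 with 1 array left out. The number of measured Lce1 genes that were lower was 2 to 3 with 1 array left out, and 2 of 2 with genes well above background on all 8 arrays. The number of Lce1 genes well above background was 2 to 4 over the filters.

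Of the complex genes outside the 10, 1 passed as lower without scaling (Sprr2g) and 0 to 1 with 1 array left out. The call of Alox12b among cornification genes (1 higher) became 0 with median scaling, quantile normalization, no scaling, the deposited z-scores, normexp correction, no filter and the all-array filter, under which it was not tested. It ran from 0 to 1 with 1 array left out, and passed only without hCNR1-/- replicate 4. The cause was not tested.

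Deviations from the genotype means correlated from -0.16 to 0.21 between arrays of the same replicate number. With 4 arrays per genotype these values cannot show whether the samples were paired. With the replicate block the difference of Lce1d was -4.02, and 0 cornification genes passed. Dim probes have only a bound, so the 7 Lce1 genes below the filter have no measured difference.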
